A study of Homo sapiens with 30 samples.

Results

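Replication-dependent histone genes encode the linker histone H1 and the core histones H2A, H2B, H3 and H4, around which DNA is wound when it is copied. They are transcribed mainly in S phase from clusters of short genes without introns, under the activator NPAT, which CDK2 phosphorylates at sites called histone locus bodies. Their transcripts carry no poly(A) tail: they end in a stem-loop that the protein SLBP binds, after cleavage guided by the U7 small nuclear ribonucleoprotein, whose ring contains LSM10 and LSM11. The genes described here are the rows of the deposited count table named H1-1 to H1-6, H2AC, H2BC, H3C or H4C with a number, without names that end in P, the mark of a pseudogene. This gave 65 of the 58780 genes: 6 H1, 15 H2A, 18 H2B, 11 H3 and 15 H4 genes. Of these, 51 passed the filter on low counts and were tested, and 14 did not.

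A549, a line of human lung adenocarcinoma cells, was profiled by PRO-seq (precision run-on sequencing). In this assay polymerases that are already engaged on DNA add a labelled nucleotide, so a count reports ongoing transcription and not the amount of messenger RNA. GSK591 inhibits PRMT5, which makes symmetric dimethylarginine on proteins that include the Sm protein SNRPB, and MS023 inhibits the Type I arginine methyltransferases, which make the asymmetric form. The 30 libraries formed 15 groups of 2: untreated cells, dexamethasone (Dex, a synthetic glucocorticoid) for 15 min or 3 h, Dex with GSK591 or Dex with MS023 for 3 h, GSK591 or MS023 alone for 2, 4 or 7 days, and Dex for 15 min or 3 h at the end of 7 days of GSK591 or of MS023. Dex was given at 100 nM and both inhibitors at 1 µM, in 0.01% DMSO, which the untreated cells received too. The label of the untreated group names 15 min, and that group was the control for every treatment time. All libraries came from 1 cell line, and the labels do not say whether replicates were separate cultures, so the p-values measure the spread between these samples, which may be technical.

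Total counts ran from 8441211 to 13069598 per library. Mitochondrial genes took 58.7% to 78.7% of them, which left 2541528 to 3957508 counts for nuclear genes, and the 65 histone genes took 0.282% to 1.23% of the nuclear counts. Of 8 epithelial and metabolic markers of A549 all were tested, with KRT8 at 157 to 456 CPM and AKR1C1 at 108 to 372 CPM. EPCAM (0.957 to 6.19 CPM) and CDH1 (1 to 6.65 CPM) were low. The leukocyte marker PTPRC did not exceed 0.437 CPM and the erythroid marker HBB did not exceed 0.366 CPM. The fibroblast marker COL3A1 reached 1.91 CPM, and the endothelial markers CDH5 and PECAM1 reached 1.22 and 1.15 CPM. These values lie within the ranges of EPCAM and CDH1. CPM values are counts per 1000000 of the library, with library sizes scaled by the trimmed mean of M-values (TMM).

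The promoters of these genes are short and hold few kinds of element, so 4 are shown: those of a gene from the H1, H2B, H3 and H4 families that the results below turn on. Each is the 250 bases before the RefSeq start in GRCh38.p14, written 5′ to 3′ on the gene's strand, and capitals mark the TATA box (TATAAA), the CCAAT box, the octamer (ATTTGCAT) and the H1 box (AAACACA), each searched on both strands, overlaps allowed. H1-3 lies at chr6:26234988-26235237 (minus strand), H2BC3 at chr6:26043714-26043963 (minus strand), H3C15 at chr1:149852358-149852607 (plus strand) and H4C2 at chr6:26027284-26027533 (minus strand).
H1-3: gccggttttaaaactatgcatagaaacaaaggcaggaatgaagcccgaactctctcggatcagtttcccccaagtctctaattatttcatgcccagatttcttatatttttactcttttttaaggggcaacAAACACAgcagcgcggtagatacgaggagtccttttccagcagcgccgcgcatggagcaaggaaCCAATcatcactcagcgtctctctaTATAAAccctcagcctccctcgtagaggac
H2BC3: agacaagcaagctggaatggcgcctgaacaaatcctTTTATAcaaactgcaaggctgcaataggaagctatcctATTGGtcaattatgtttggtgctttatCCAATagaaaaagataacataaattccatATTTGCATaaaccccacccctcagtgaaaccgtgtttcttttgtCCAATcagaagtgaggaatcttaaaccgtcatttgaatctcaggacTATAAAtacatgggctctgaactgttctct
H3C15: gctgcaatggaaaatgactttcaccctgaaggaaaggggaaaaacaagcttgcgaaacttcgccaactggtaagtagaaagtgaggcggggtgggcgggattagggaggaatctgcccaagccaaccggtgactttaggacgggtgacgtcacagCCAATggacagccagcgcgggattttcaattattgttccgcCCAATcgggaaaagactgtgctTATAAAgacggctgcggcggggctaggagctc
H4C2: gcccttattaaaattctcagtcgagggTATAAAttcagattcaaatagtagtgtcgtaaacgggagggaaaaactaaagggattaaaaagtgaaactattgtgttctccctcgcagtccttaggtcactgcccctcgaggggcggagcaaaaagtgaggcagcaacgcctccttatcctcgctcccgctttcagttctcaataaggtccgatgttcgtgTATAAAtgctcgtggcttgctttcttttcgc
RefSeq promoters were matched by symbol for 60 of the 65 genes. TATAAA was found in 66.7% of them against 11.3% of all 27305 promoters, and CCAAT in 83.3% against 32.9%. The families differed in these letters: CCAAT was present in every matched H1, H2A, H2B and H3 promoter but in 3 of 13 H4 promoters. The octamer, the element bound by POU2F1, was found in 11 of 14 H2A and 14 of 18 H2B promoters and in none of the other families, against 1.68% of all promoters. The H1 box was found in 6 of 6 H1 promoters and in no other of these genes, against 4.96% of all promoters. A match of letters describes the sequence and does not show that a factor binds there.

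The stem-loop at the transcript's end is shown because it is what the processing genes described further below act on. It was looked for in the GENCODE models within 200 bases after the coding end, and 29 of the 65 genes held it there, 22 to 56 bases after the coding end (median 35). Of the other 36 genes, 31 have a model that stops at the coding end. The 29 genes shared 6 versions, in which capitals mark the loop and lower case the paired stem.
H2AC6, H2BC21, H3C14, H3C15 and 11 others: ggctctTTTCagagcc
H4C2, H4C5, H4C8, H4C11 and H4C16: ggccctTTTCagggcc
H2BC4, H2BC5, H2BC7 and H3C8: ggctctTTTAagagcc
H4C9, H4C14 and H4C15: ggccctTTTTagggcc
H2AC11: ggctctTTTCagggcc
H3C6: ggctctTCTCagagcc
The H4 genes with a stem-loop thus differed from most H2A, H2B and H3 genes in the stem, and the H4 genes split between 2 loops.

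The genes lay in a large cluster at 6p22 with 53 members (chr6:25726132-27893843), a smaller one at 1q21 with 9 (chr1:149782689-149887916), and 3 genes elsewhere. Those 3 were H2AC25 and H2BC26, neighbours at chr1:228456979-228460470, and H4C16 at chr12:14767999-14771131. All 14 genes below the filter were in the 6p22 cluster, with 0 to 62 counts each over the 30 libraries, against 315 to 59077 for the tested genes. For 4 of them another gene model covers most or all of the exon: H3C4 and H2AC15 are covered over 100%, H2AC7 over 98.0% and H2AC17 over 88.0%. Their low totals are therefore uncertain. Near-identical copies are uncertain in another way. Every stretch of 31 bases of H3C14 and H3C15 occurs in another gene, as do 98.6% of those of H4C14, 97.2% of H4C15 and 100% of H4C12, which resembles H4C11. In all, 15 of the 65 genes share over 50% of such stretches with some other gene, among them H3C13 (86.4%), H2BC12 (86.3%), H2AC14 (86%) and H2AC20 (50.6%). How reads that fit several genes were assigned is not given in the sources used here, so the values of such copies cannot be told apart, and those of genes that share a smaller part are uncertain.

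Per kilobase of exon, and averaged over all 30 libraries, the 2 highest genes of each family were H2AC20 (200.2 CPM per kb) and H2AC21 (142 CPM per kb) among the H2A genes, and H3C13 (163 CPM per kb) and H3C15 (112 CPM per kb) among the H3 genes. H1-2 (152 CPM per kb) and H1-4 (141 CPM per kb) led the linker histones. Among the H4 genes the highest were H4C2 (102 CPM per kb) and H4C12 (99.0 CPM per kb), and among the H2B genes H2BC12 (69.2 CPM per kb) and H2BC5 (59.4 CPM per kb). The order depends on the length of the gene models, of which 31 stop at the coding end. H3C13, with 411 bases of exon, averaged 67.1 CPM, and H3C15, with 1656 bases, 185.6 CPM. A lead per kilobase is therefore not a lead in counts. This order is over all groups: in untreated cells alone H4C1, which has the same exon length as H4C12, was at 33.2 CPM ± 3.36 (SD, n = 2) and H4C12 at 32.3 CPM ± 4.69 (SD, n = 2), which do not differ beyond their spread.

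**Figure D1:**
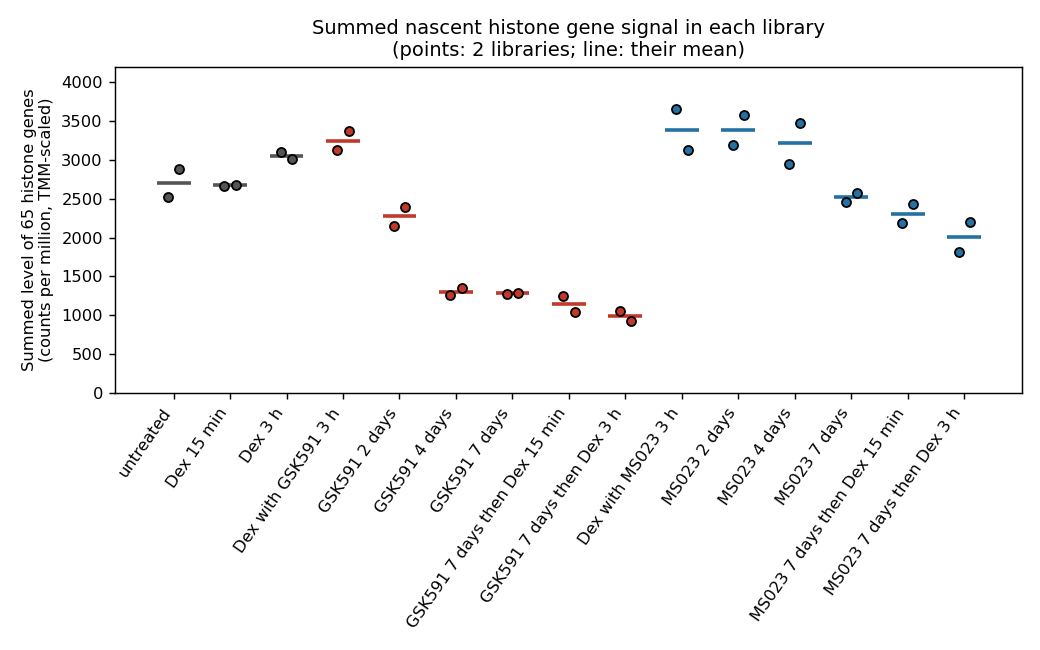
Summed TMM-scaled level of the 65 histone genes (CPM, vertical axis) in each of 30 libraries, by group; points are libraries and lines the mean of 2. The 2 libraries of GSK591 at 4 days (1257 and 1345) and at 7 days (1277 and 1288) lie below both untreated libraries (2527 and 2887), and those of MS023 at 2 days (3189 and 3572) lie above them.

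The summed level of the histone genes fell under GSK591 and, at the earlier times, was higher under MS023. It was 2527 and 2887 CPM in the untreated libraries, 2148 and 2398 CPM after 2 days of GSK591, 1257 and 1345 CPM after 4 days and 1277 and 1288 CPM after 7 days. The group means were 0.84, 0.481 and 0.474 of the untreated mean, and at all 3 times both GSK591 libraries were below both untreated ones. Under MS023 the sum was 3189 and 3572 CPM at 2 days, 2953 and 3475 CPM at 4 days and 2464 and 2578 CPM at 7 days, or 1.25, 1.19 and 0.931 of the untreated mean. The MS023 libraries were above the untreated ones at 2 and 4 days and overlapped them at 7 days. These orders hold for TMM-scaled values. As a share of nuclear counts, the histone genes took 0.725% and 0.865% in untreated libraries. At 7 days of MS023 they took 0.911% and 0.943%, above both. At 2 days of GSK591 they took 0.629% and 0.746%, which overlapped the untreated share. At the other times the order was the same on both measures. These are bulk libraries: fewer cells in S phase and less transcription per cell cannot be told apart.

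GSK591 was compared with untreated cells at each time, to follow nascent transcription as PRMT5 inhibition went on. After 7 days, 47 of the 51 tested histone genes were lower and none was higher, at an adjusted p below 0.05 in the edgeR quasi-likelihood test. Of all 22919 tested genes, 6.52% were called lower and 6.68% higher. The median log2 fold change of the 51 genes was -0.98, against about 0 for all tested genes, and 49 had both treated libraries below both untreated ones, as had 28% of all genes. At 4 days the picture was close to this, with 44 genes lower and none higher (8.28% of all genes lower, 8.91% higher) and a median of -0.95. At 2 days 9 genes were lower and none higher (2.45% of all genes lower, 3.19% higher), with a median of -0.17. Between 2 and 7 days of GSK591, 40 genes fell further and none rose (4.68% of all genes lower, 3.71% higher), with a median of -0.80.

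All families took part in the fall at 7 days. The calls covered 4 of 4 tested H1 genes, 10 of 10 H2A, 13 of 15 H2B, 8 of 9 H3 and 12 of 13 H4 genes, with median log2 fold changes of -1.48, -1.03, -0.97, -1.0 and -0.92. At 2 days the 9 calls were 3 of 4 H1 genes, 4 of 9 H3 genes and 2 of 13 H4 genes, with no H2A or H2B gene among them. Whether the families differ at that time was not tested. The fall at 7 days was seen at every position: 35 of 39 tested genes at 6p22 were lower (median -1.0), as were 9 of 9 at 1q21 (median -1.05), and the 3 genes outside the clusters were lower too (median -0.59).

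**Figure D2:**
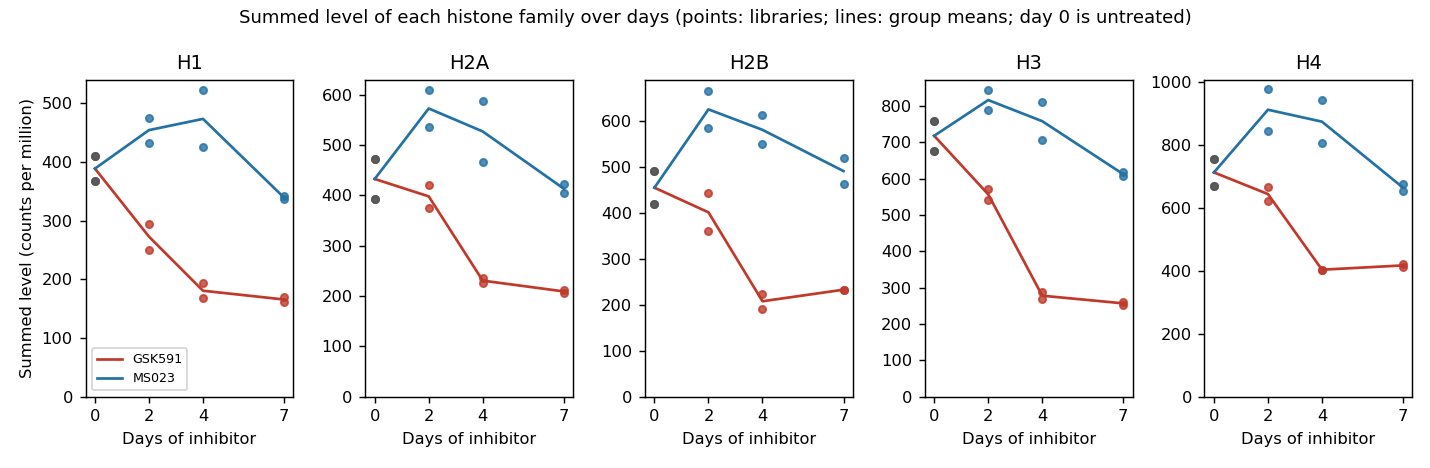
Summed level of each histone family (CPM, vertical axis from 0) against days of inhibitor for GSK591 and MS023; points are libraries, lines join group means and day 0 is the untreated group. At 7 days of GSK591 the family means are 0.358 (H3) to 0.586 (H4) of untreated, and at 2 days of MS023 they are 1.14 (H3) to 1.37 (H2B).

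Single genes show the size of the fall. H4C9, an H4 gene at 6p22, was at 20.8 and 26.2 CPM in untreated cells, 15.9 and 15.6 CPM at 2 days, 10.9 and 9.23 CPM at 4 days and 4.42 and 6.57 CPM at 7 days of GSK591. The groups did not overlap at any time, and the log2 fold change at 7 days was -2.11 (SE 0.189, adjusted p = 5.13e-12), the largest fall among the 51. H3C15, an H3 gene at 1q21 whose copy H3C14 cannot be told apart from it, was at 235 and 257 CPM in untreated cells, 178 and 187 CPM at 2 days, 72.9 and 85.2 CPM at 4 days and 62.3 and 67.5 CPM at 7 days. Most of its fall came between 2 and 4 days, and the log2 fold change at 7 days was -1.92 (SE 0.113, adjusted p = 3.1e-18). H1-3, a linker histone gene, was at 77.6 and 93.9 CPM in untreated cells, 49.7 and 61.6 CPM at 2 days, 26.3 and 33.5 CPM at 4 days and 22.4 and 23.5 CPM at 7 days. All its GSK591 libraries were below the untreated ones, and the log2 fold change was -0.62 at 2 days (SE 0.167, adjusted p = 0.0306) and -1.90 at 7 days (SE 0.181, adjusted p = 1.12e-07). H1-5, another linker histone gene, was at 37.9 and 44.9 CPM in untreated cells and 9.89 and 15.1 CPM at 4 days, a log2 fold change of -1.73 (SE 0.193, adjusted p = 5.3e-07).

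Of the 10 genes that led their families in level per kilobase, H3C15 is given above and the other 9 follow. H1-2 was at 127 and 134 CPM in untreated cells and 60.7 and 58.0 CPM after 7 days of GSK591 (log2 fold change -1.14, SE 0.129, adjusted p = 2.36e-08). H2AC20 was at 76.1 and 88.7 CPM against 35.0 and 41.7 CPM (log2 fold change -1.11, adjusted p = 4.94e-08). For both the treated libraries were below the untreated ones. The log2 fold changes of the others were -0.87 for H1-4 (adjusted p = 0.000843), -0.95 for H2AC21 (adjusted p = 3.46e-05), -1.02 for H2BC12 (adjusted p = 7.15e-06), -0.86 for H2BC5 (adjusted p = 0.00549), -0.95 for H3C13 (adjusted p = 2.74e-07), -0.75 for H4C2 (adjusted p = 0.000114) and -0.92 for H4C12 (adjusted p = 0.000898). Of the genes outside the clusters, H4C16 was at 120 and 136 CPM in untreated cells and 102 and 101 CPM at 7 days, the smallest fall that passed (log2 fold change -0.33, adjusted p = 0.0423). The neighbours H2AC25 and H2BC26 had log2 fold changes of -0.60 (adjusted p = 0.0222) and -0.59 (adjusted p = 0.0385).

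The 4 tested genes not called at 7 days of GSK591 were named after their values were seen. H3C6, the gene with a loop of its own shown above, was at 8.23 and 7.05 CPM in untreated cells and 6.74 and 8.58 CPM at 7 days, so that its groups overlapped. H4C5 was at 58.3 and 64.6 CPM against 51.1 and 50.7 CPM, with a log2 fold change of -0.27 (adjusted p = 0.091). H2BC10 and H2BC7 had log2 fold changes of -0.47 and -0.34, and H2BC7 was near the limit of detection, at 1 and 1.51 CPM in untreated cells. Leaving out any 1 library left 39 to 45 calls at 4 days and 37 to 43 at 7 days, but the 9 calls at 2 days became 5 without untreated replicate 1, 0 without untreated replicate 2 and 1 without either GSK591 replicate. Scaling by total counts alone, which moved the median of all genes by 0.29 at 2 days and 0.42 at 4 days, left 0 and 23 calls at these times.

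**Figure D3:**
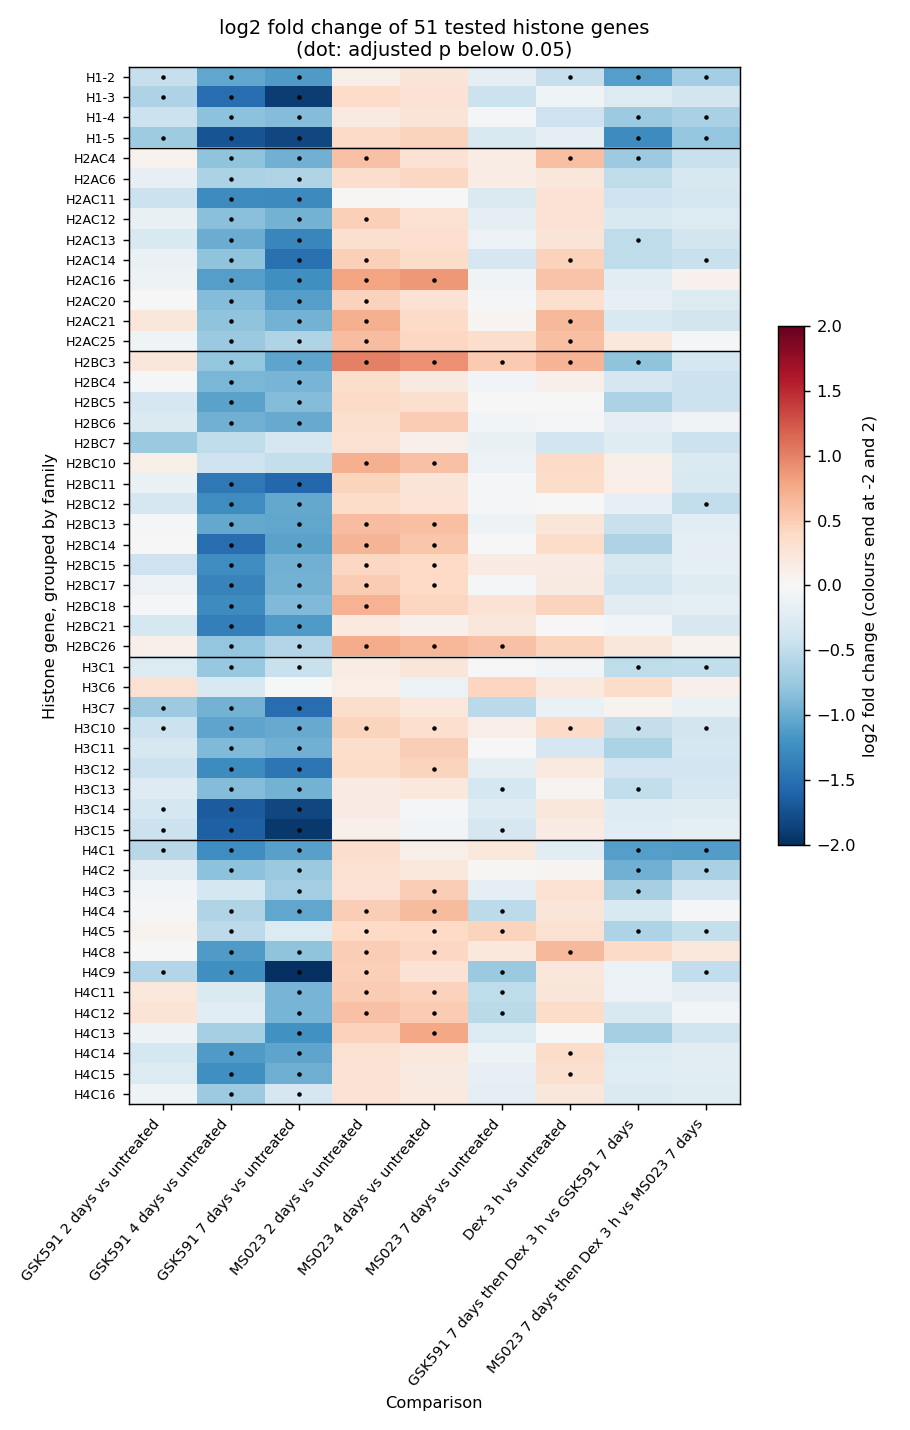
log2 fold change (colour, blue lower and red higher, ending at -2 and 2) of the 51 tested histone genes (rows, by family) in 9 comparisons (columns); a dot marks an adjusted p below 0.05. The columns for GSK591 at 4 and 7 days hold 44 and 47 dots, all on lower genes, and the column for MS023 at 2 days holds 22, all on higher genes.

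MS023 against untreated cells asks the same of the Type I enzymes. After 2 days 22 of the 51 histone genes were higher and none was lower, where 6.18% of all tested genes were called higher and 4.21% lower, and the median log2 fold change was 0.39. Of the 51 genes, 46 had both MS023 libraries above both untreated ones, as had 28% of all genes. After 4 days 17 were higher and none lower (7.8% of all genes higher, 6.37% lower), with a median of 0.33. After 7 days 3 were higher and 6 lower, with a median of -0.06, where 7.13% of all genes were called higher and 6.51% lower. Between 2 and 7 days of MS023, 29 genes fell and none rose (7.06% of all genes lower, 6.11% higher), with a median of -0.44.

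The rise at 2 days was called in 7 of 10 H2A, 8 of 15 H2B, 1 of 9 H3 and 6 of 13 H4 genes, and in none of the 4 H1 genes. H2BC3, the H2B gene whose promoter with octamer is shown above, was at 8.79 and 10.3 CPM in untreated cells and 17.5 and 20.9 CPM at 2 days, 17.1 and 18.9 CPM at 4 days and 12.3 and 15.1 CPM at 7 days of MS023. All its MS023 libraries were above the untreated ones, with log2 fold changes of 1.01 (SE 0.169, adjusted p = 3.2e-05), 0.91 (adjusted p = 7.22e-05) and 0.52 (adjusted p = 0.033). H2BC26, outside the clusters, was at 12.3 and 12.1 CPM in untreated cells and at 18.9 and 22.1 CPM, 19.3 and 19.4 CPM and 17.3 and 19.4 CPM at the 3 times. It too stayed above the untreated libraries, with log2 fold changes of 0.75 at 2 days (SE 0.172, adjusted p = 0.00257) and 0.59 at 7 days (adjusted p = 0.0145). H2AC16 was at 3.67 and 6.75 CPM in untreated cells, 8.31 and 9.78 CPM at 2 days and 8.67 and 10.5 CPM at 4 days, log2 fold changes of 0.78 (adjusted p = 0.0198) and 0.86 (adjusted p = 0.00524). The H4 gene H4C13 was at 9.01 and 12 CPM in untreated cells and 15.2 and 20.9 CPM at 4 days (log2 fold change 0.78, adjusted p = 0.01).

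At 7 days of MS023, 1 of 13 tested H4 genes was called higher and 4 were called lower. H4C5 was at 80.7 and 86.8 CPM against 58.3 and 64.6 CPM in untreated cells, a log2 fold change of 0.45 (adjusted p = 0.00208). H4C9 was at 11.8 and 16.4 CPM against 20.8 and 26.2 CPM, below both untreated libraries (log2 fold change -0.74, adjusted p = 0.000464), although it had been at 32.4 and 33.3 CPM, above them, at 2 days. The falls of H4C12 (log2 fold change -0.55, adjusted p = 0.0309), H4C4 (-0.52, adjusted p = 0.0112) and H4C11, which resembles H4C12 (-0.52, adjusted p = 0.00453), and of the H3 genes H3C13 (-0.35, adjusted p = 0.0439) and H3C15 (-0.34, adjusted p = 0.0247), passed the test as well. Without untreated replicate 1 or the second MS023 replicate the 22 calls at 2 days became 3 and the 17 at 4 days became 2. The 9 calls at 7 days became 5 without untreated replicate 1, 1 without untreated replicate 2, 4 without MS023 replicate 1 and 3 without MS023 replicate 2. Under scaling by total counts alone, which moved the median of all genes by 0.68, 0.74 and 1.02, the calls were 50, 50 and 46, all higher. Mitochondrial genes took 76.01% and 73.35% of the total in untreated libraries and 58.71% and 59.58% at 7 days of MS023, so this scaling follows that share too. Without mitochondrial and ribosomal RNA genes, TMM scaling gave 3 higher and 6 lower at 7 days. As a share of nuclear counts, which leaves mitochondrial genes out, the histone sum at 7 days was 1.17 of untreated. The falls at 7 days thus depend on the scaling and are falls relative to other genes only.

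The difference between the inhibitors was tested directly at each time. At 2 days 32 of 51 histone genes were lower under GSK591 than under MS023 and none was higher (1.58% of all genes lower, 1.11% higher), with a median log2 difference of -0.60. At 4 days 49 were lower and none higher (3.52% of all genes lower, 2.51% higher) with a median of -1.34, and at 7 days 44 were lower and none higher (4.47% of all genes lower, 4.91% higher) with a median of -0.96. H1-5 was at 9.89 and 15.1 CPM under GSK591 and 50 and 62.5 CPM under MS023 at 4 days, a log2 difference of -2.17 (SE 0.189, adjusted p = 1.99e-08). H3C15 was at 62.3 and 67.5 CPM under GSK591 and 190 and 199 CPM under MS023 at 7 days, a log2 difference of -1.58 (adjusted p = 5.65e-15). H2BC3 was at 4.77 and 4.42 CPM under GSK591 and 12.3 and 15.1 CPM under MS023 at 7 days, a log2 difference of -1.57 (SE 0.198, adjusted p = 6.78e-08). For these 3 genes every GSK591 library was below every MS023 library of the same time. The 32 calls at 2 days became 9 without GSK591 replicate 1 or without MS023 replicate 2, and 19 without GSK591 replicate 2. The 29 falls between 2 and 7 days of MS023 became 9 without the second replicate at 2 days and 13 without the first at 7 days.

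Dex alone was compared with untreated cells as the response to the hormone without inhibitor. At 15 min no histone gene passed the edgeR test (1.26% of all genes did), none had an unadjusted p below 0.05, and DESeq2 called 0 as well. At 3 h 9 histone genes were higher, where 6.11% of all genes were, and 1 was lower, where 4.41% were, with a median log2 fold change of 0.23. The higher genes were 4 H2A, 1 H2B, 1 H3 and 3 H4 genes and the lower gene was H1-2. H2AC21, an H2A gene at 1q21, was at 48.8 and 59.6 CPM in untreated cells and 72.2 and 97.7 CPM with Dex (log2 fold change 0.64, SE 0.142, adjusted p = 0.00187). H4C8 was at 24.6 and 24.5 CPM against 40.6 and 36 CPM (log2 fold change 0.64, SE 0.146, adjusted p = 0.00163). H2BC3 was at 8.79 and 10.3 CPM against 16.7 and 13.8 CPM (log2 fold change 0.68, SE 0.176, adjusted p = 0.00625). For these 3 both Dex libraries were above both untreated ones.

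No linker histone gene was called higher. H1-2 was at 127 and 134 CPM in untreated cells and 104 and 85.5 CPM after 3 h of Dex, below both untreated libraries (log2 fold change -0.46, SE 0.125, adjusted p = 0.0109). H1-4 was at 125 and 136 CPM against 109 and 86.5 CPM and was not called (log2 fold change -0.42, adjusted p = 0.111). The summed level of the H1 genes was 0.796 of untreated, while that of the core families was 1.13 (H2B and H3) to 1.3 (H2A). The H2B sums overlapped, at 581.1 and 444.6 CPM with Dex against 419 and 492.1 CPM in untreated cells. Those of the other families did not. The 10 calls at 3 h became 2 without untreated replicate 1 or without the second Dex replicate. Scaling by total counts left 5, all higher. H1-2 stayed lower in each alternative, but its call was lost under that scaling (log2 fold change -0.31), without untreated replicate 2 (-0.42) and without the second Dex replicate (-0.33).

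Inhibitors added together with Dex for 3 h were compared with Dex alone. With GSK591 no histone gene and 0% of all genes passed, 7 histone genes had an unadjusted p below 0.05, and DESeq2 called 0. With MS023 no histone gene passed (0.196% of all genes did), 11 had an unadjusted p below 0.05, and DESeq2 called 0. The median log2 differences were 0.12 and 0.20. H2BC3 was at 20.6 and 19.6 CPM with GSK591 and 24.2 and 21.4 CPM with MS023, against 16.7 and 13.8 CPM with Dex alone. These libraries do not overlap, but the differences did not pass.

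Dex for 3 h was also given after 7 days of inhibitor, and then compared with the same inhibitor alone. After GSK591, 13 of 51 genes were lower with Dex than without it and none was higher (4.46% of all genes lower, 5.39% higher), with a median log2 fold change of -0.31. The 13 were 3 H1, 2 H2A, 1 H2B, 3 H3 and 4 H4 genes, 12 of them at 6p22. After MS023, 11 were lower and none higher (5.38% of all genes lower, 5.72% higher), with a median of -0.32, and all 11 were at 6p22: 3 H1, 1 H2A, 1 H2B, 2 H3 and 4 H4 genes. Of the 51 tested genes 39 are at 6p22, and whether the calls favour this cluster was not tested. The 2 comparisons share no library, and 8 genes were called in both, 61.5% of the calls after GSK591 and 72.7% of those after MS023: H1-2, H1-4, H1-5, H3C1, H3C10, H4C1, H4C2 and H4C5. Both comparisons measure a response to 3 h of Dex, and the overlap among all genes was not computed. Whether this overlap is particular to histone genes is therefore not known. The summed level of all histone genes was 1054 and 924 CPM after GSK591 then Dex, and 1814 and 2198 CPM after MS023 then Dex, below both libraries of the same inhibitor alone in each case.

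**Figure D4:**
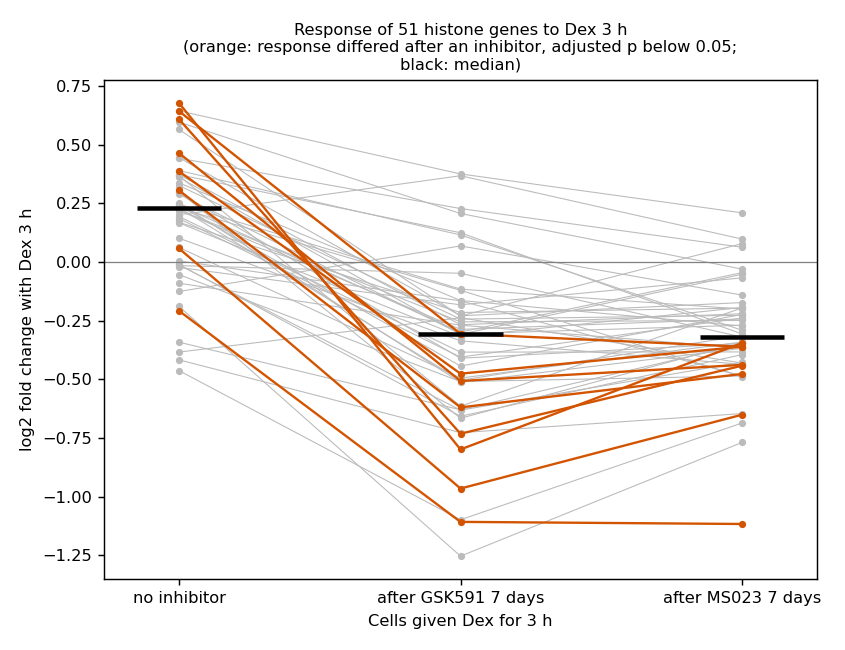
log2 fold change with Dex for 3 h (vertical axis) of the 51 tested histone genes in cells without inhibitor, after 7 days of GSK591 and after 7 days of MS023; each line is 1 gene, orange marks genes whose response differed after an inhibitor, and black bars are medians. The medians are 0.23, -0.31 and -0.32.

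H1-2, at 60.7 and 58.0 CPM after 7 days of GSK591, was at 30.5 and 24.9 CPM once Dex was added (log2 fold change -1.10, adjusted p = 1.17e-07), and at 114 and 115 CPM against 62.2 and 80.1 CPM after MS023 (-0.69, adjusted p = 9.14e-05). H4C1 was at 13.5 and 18 CPM against 6.51 and 8.02 CPM after GSK591 (log2 fold change -1.11, adjusted p = 5.51e-05), and at 37.7 and 38.9 CPM against 15.5 and 19.9 CPM after MS023 (-1.12, SE 0.146, adjusted p = 1.86e-07). H1-5 was at 12.4 and 10.9 CPM against 3.97 and 5.85 CPM after GSK591 (log2 fold change -1.25, adjusted p = 0.0021), and at 30.9 and 36.6 CPM against 16.9 and 22.7 CPM after MS023 (-0.77, adjusted p = 0.00414). For these 3 genes, after either inhibitor, both Dex libraries were below both libraries without Dex. At 15 min of Dex 3 genes were lower after GSK591 (1.03% of all genes lower, 1.07% higher): H2BC14 (log2 fold change -1.08, adjusted p = 0.0349), H2BC13 (-0.91, adjusted p = 0.0055) and H3C10 (-0.50, adjusted p = 0.0413). These 3 became 2 without the first Dex library and 0 without any other of the 4. After MS023 none passed at 15 min (2.07% of all genes did), 8 had an unadjusted p below 0.05, and DESeq2 called 0.

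At 3 h the 13 calls after GSK591 became 8 and 7 without its first and second library, and 5 without the second Dex library. The 11 calls after MS023 became 7 and 5 without its first and second library and 3 without the first Dex library. Under scaling by total counts 4 were called after each inhibitor, and without the filter on low counts 19 were called after MS023.

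The change in the response to Dex was tested as an interaction, that is, the log2 fold change with Dex for 3 h after an inhibitor minus the one without inhibitor. After GSK591 it was negative and called for 6 of the 51 genes and positive for none (0.183% of all genes negative, 0.0393% positive), with a median of -0.57. After MS023 it was negative for 7 and positive for none (0.144% of all genes negative, 0.0785% positive), with a median of -0.49. Both interactions use the same untreated and Dex libraries. H2BC3 rose from 8.79 and 10.3 CPM to 16.7 and 13.8 CPM with Dex alone, but was at 4.77 and 4.42 CPM against 2.54 and 2.75 CPM after GSK591, an interaction of -1.48 (SE 0.32, adjusted p = 0.022). After MS023 it was at 12.3 and 15.1 CPM without Dex and 10.4 and 11.1 CPM with it, an interaction of -1.02 (adjusted p = 0.0385). H2AC4 was at 19.7 and 22.8 CPM without Dex and 28.3 and 36.8 CPM with it in cells without inhibitor. After GSK591 it was at 10.0 and 11.9 CPM without Dex and 6.95 and 6.19 CPM with it, an interaction of -1.34 (adjusted p = 0.0111), and after MS023 it was at 23.5 and 23.8 CPM against 17.5 and 17.3 CPM, an interaction of -1.05 (adjusted p = 0.0239). In both genes the Dex libraries were above the untreated ones without inhibitor, and below those of the same inhibitor alone after GSK591 or MS023.

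H4C2, whose promoter is shown above, was at 53.3 and 52.1 CPM in untreated cells and 51.6 and 58.2 CPM with Dex, groups that overlapped. After GSK591 it was at 32.7 and 30.0 CPM without Dex and 16.9 and 15.2 CPM with it, an interaction of -1.02 (adjusted p = 0.0108). The other called interactions after GSK591 were those of H2AC21 (-0.95, adjusted p = 0.0497), H4C5 (-0.92, adjusted p = 0.00146) and H3C10 (-0.86, adjusted p = 0.0191). After MS023 they were H2AC21 (-1.0, adjusted p = 0.023), H4C1 (-0.91, adjusted p = 0.0418), H2AC14 (-0.90, adjusted p = 0.031), H4C5 (-0.78, adjusted p = 0.00621) and H3C10 (-0.75, adjusted p = 0.0337). Single libraries weighed heavily here. The 6 calls after GSK591 became 1 without untreated replicate 1 or the second library of GSK591 then Dex, and 2 without the second Dex library or either GSK591 library. The 7 after MS023 became 0 without untreated replicate 1, the second MS023 library or the first library of MS023 then Dex, 1 without the second Dex library, 2 without the first MS023 library, 3 without the second library of MS023 then Dex, and 4 without untreated replicate 2. No interaction was called under scaling by total counts, in which the medians were -0.52 and -0.65.

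Genes that act on histone transcripts or share their timing were followed in lists. One list held 28 genes of DNA replication, such as the MCM helicase and the replication factors around it. Of these, 7, 22 and 23 were lower after 2, 4 and 7 days of GSK591, with medians of -0.39, -1.34 and -1.21. Of all tested genes, 2.45%, 8.28% and 6.52% were called lower at these times. Under MS023 4, 12 and 15 of the replication genes were lower (4.21%, 6.37% and 6.51% of all genes), with medians of -0.29, -0.55 and -0.63. The histone genes and the replication genes were therefore both lower under GSK591, while under MS023 at 2 days 22 histone genes were higher and 4 replication genes lower. MCM2, a subunit of the helicase, was at 15 and 15.1 CPM in untreated cells, 4.3 and 2.55 CPM after 7 days of GSK591 and 6.8 and 6.95 CPM after 7 days of MS023. It was lower under both, with log2 fold changes of -2.11 (adjusted p = 1.86e-09) and -1.13. CDC45, which joins the helicase, was at 10.1 and 9.77 CPM in untreated cells against 1.51 and 2.41 CPM under GSK591 (log2 fold change -2.35). Cell cycle position was not measured, and the part of these levels in the histone values was not tested.

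The replication genes were also compared with and without Dex for 3 h after an inhibitor. After GSK591, 4 of the 28 were higher with Dex and 2 lower, where 5.39% and 4.46% of all genes were called in these directions, with a median of 0.01. After MS023 2 were lower, where 5.38% of all genes were, with a median of 0.02. The interaction was called for 1 replication gene after GSK591, in the positive direction, in which 0.0393% of all genes were called, and for none after MS023, with medians of 0.27 and 0.18.

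**Figure D5:**
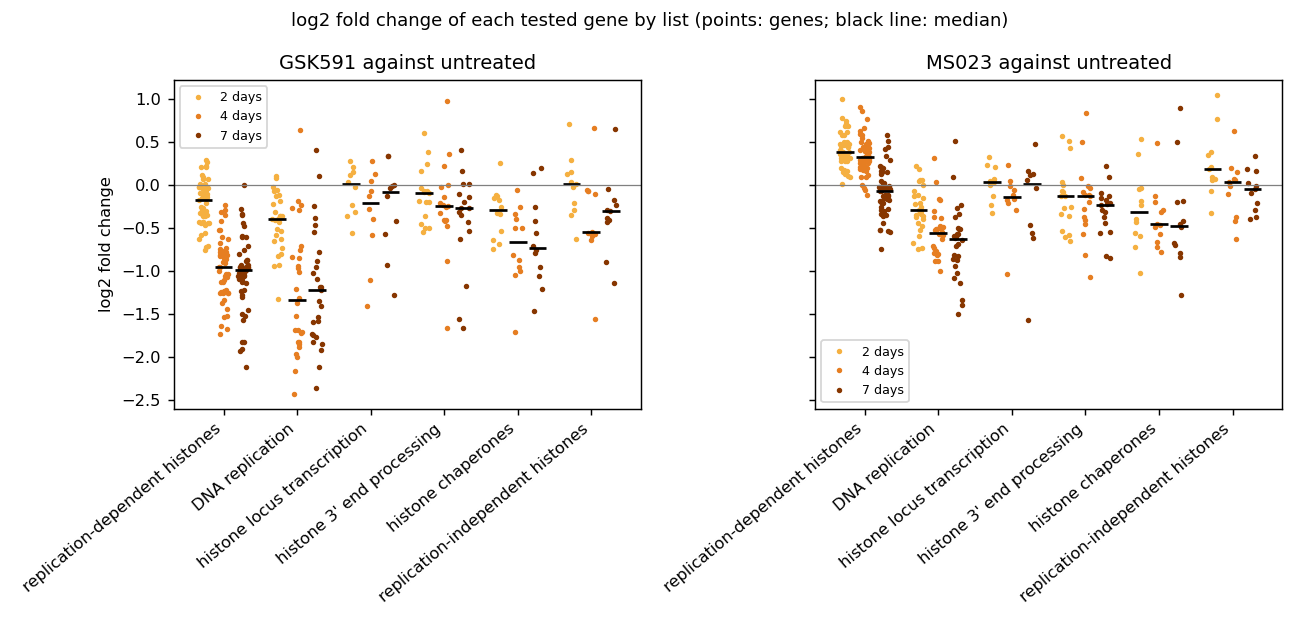
log2 fold change of each tested gene (points, vertical axis) at 2, 4 and 7 days of GSK591 (left) and MS023 (right) against untreated cells, by gene list; black lines are medians. Under GSK591 at 7 days the medians are -0.98 for the histone genes and -1.21 for DNA replication, and under MS023 at 2 days they are 0.39 and -0.29.

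Of 10 genes for transcription at the histone locus, 2 were lower after 7 days of GSK591 (median -0.08) and 2 after 7 days of MS023 (median 0.02). Of all genes, 6.52% and 6.51% were called lower. Whether 2 of 10 exceeds these shares was not tested. NPAT was at 4 and 1.51 CPM in untreated cells and 1.74 and 1.07 CPM after 7 days of GSK591, groups that overlapped, and was not called (log2 fold change -0.93, adjusted p = 0.217). CASP8AP2, a component of histone locus bodies, had log2 fold changes of -0.57 (adjusted p = 0.0286) and -0.62 (adjusted p = 0.0105) at 7 days of GSK591 and MS023, and the kinase gene CDK2 had -1.27 (adjusted p = 0.00278) and -1.56 (adjusted p = 8.84e-05). HINFP, which binds H4 promoters, had 0.00 and -0.03, and POU2F1, which binds the octamer, -0.41 and -0.55 (adjusted p = 0.0754 under MS023). Neither HINFP nor POU2F1 was called under either inhibitor.

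Of 17 tested genes for the 3′ end of histone transcripts, 5 were lower after 7 days of GSK591 (median -0.26) and 2 after 7 days of MS023 (median -0.22). The shares of all genes called lower were 6.52% and 6.51%, and whether these counts exceed them was not tested. The U7 RNA gene RNU7-1 had 0 counts in all libraries. SLBP was at 18.7 and 16.8 CPM in untreated cells, 15.7 and 13.8 CPM under GSK591 and 15.2 and 16.8 CPM under MS023, and was not called (log2 fold changes -0.26, adjusted p = 0.353, and -0.15, adjusted p = 0.6). SNRPB, an Sm protein and a target of PRMT5, was lower under both (log2 fold changes -0.53, adjusted p = 0.0193, and -0.55, adjusted p = 0.00801). ERI1, an exonuclease that trims the stem-loop, was lower under both as well (-1.17, adjusted p = 0.000286, and -0.85, adjusted p = 0.00324), as were, under GSK591, the cleavage factor gene CSTF2 (-1.66, adjusted p = 0.000701) and the Sm protein gene SNRPF (-1.55, adjusted p = 0.00307). LSM10 and LSM11 were not called at 7 days under either inhibitor, with log2 fold changes of 0.41 and 0.01 under GSK591 and 0.09 and -0.54 under MS023.

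The 11 replication-independent histone genes, which are transcribed outside S phase too, moved less uniformly. After 7 days of GSK591, 1 was higher and 5 were lower (6.68% of all genes higher, 6.52% lower), with a median of -0.30. After 7 days of MS023 none was called (7.13% of all genes higher, 6.51% lower), with a median of -0.04. The gene that rose was CENPA, the H3 variant of centromeres, at 22.7 and 23.3 CPM in untreated cells and 32.4 and 40.2 CPM under GSK591 (log2 fold change 0.66, adjusted p = 0.001). The H2A variant gene H2AZ1 was at 11.2 and 9.57 CPM against 4.65 and 4.82 CPM (-1.13, adjusted p = 5.31e-05). Of 12 histone chaperone genes, 8 were lower at 7 days of GSK591 (median -0.73), and 5 were lower and 1 higher at 7 days of MS023 (median -0.47). The same shares of all genes apply to these counts. CHAF1A, a subunit of the chaperone that brings H3 and H4 to new DNA, was at 23.2 and 21.2 CPM in untreated cells, 8.49 and 7.5 CPM under GSK591 (-1.47, adjusted p = 7.73e-08) and 9.07 and 9.26 CPM under MS023 (-1.27, adjusted p = 2.51e-07).

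Levels of the 11067 other genes that averaged 5 CPM or more were compared with the median log2 level of the tested histone genes. Over the 15 group means, the genes that followed this median most closely were histone genes that the naming rule misses. They are HIST1H3C (Pearson r = 0.988), HIST2H2AA3 and HIST1H3B (0.974 each), HIST2H2AA4 (0.973) and H2BC12L (0.962), named by GENCODE. Group means share their libraries and their scaling, and these genes share sequence with the 65, so the values are a description.

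The authors' deposited table for 1 week of GSK591 against untreated cells lists 16 of the 65 genes, of which 7 were lower and none higher at an adjusted p below 0.05, with a median log2 fold change of -0.69. The edgeR test of the counts called 13 of the 14 of these that it tested, all lower. In the authors' deposited table for 4 days of GSK591 11 of the 16 were lower, with a median of -1.04, where edgeR called 13 of the 14. For MS023 the authors' deposited tables call none of the 16 at 2 days, 4 days or 1 week, where edgeR called 2, 2 and 0 of the 14, the called genes being higher. The authors' tables appear to rest on other counts, so these are not 2 tests of the same values. They give H3C4, with 0 counts here, a log2 fold change of -0.01 at 1 week of GSK591. H2AC6 had -1.09 there at 2 days of GSK591, against 39.4 and 43.8 CPM here (untreated 37.0 and 56.4). H2BC4 had 0.63 there at 3 h of Dex, against 58.7 and 41.9 CPM here (untreated 40.6 and 53.2). In both genes the libraries here overlapped.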

How the data were processed

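Per the submitters' processing notes, reads were counted with featureCounts 2.0.1 (Subread) on hg38. Settings for strand, for feature type and for reads that fit several genes are not given in the sources used here. The deposited table holds whole-number counts of 58780 genes, not normalised. The authors also deposited comparison tables with a mean signal (baseMean), log2 fold changes and p-values, per the file headers.

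Counts were tested with edgeR's quasi-likelihood test (edgeR 4.0.16, R 4.3.3) with TMM scaling in 1 fit of all 15 groups (15 residual degrees of freedom). The filter filterByExpr (minimum count 10, minimum total 15) kept 22919 genes, over which p-values were adjusted by Benjamini-Hochberg at a threshold of 0.05. A standard error (SE) is that of a log2 fold change. The procedure was tested on simulated data. Summaries, sequences and figures used Python 3.11.15 and pandas 2.3.3. Gene positions are those of GENCODE models on hg38.

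Named genes are the 2 highest per family by level per kilobase, up to 3 called rises and 3 called falls per comparison whose libraries do not overlap, genes set apart by their annotation (near-identical copies, genes outside the clusters), NPAT, CASP8AP2, SLBP, LSM10, LSM11, HINFP, POU2F1, SNRPB, and up to 3 called rises and falls per list at 7 days. All called interactions are named. The genes and lists were chosen with earlier results of these data known. Alternatives were DESeq2 size factors, total counts, no filter, no mitochondrial and ribosomal RNA genes, the DESeq2 1.42.0 Wald test, a block for the replicate number, a fit restricted to the groups compared, and omission of each library in turn. Replicate correlations over 11117 genes ran from 0.924 to 0.984. Intervals that depend on counting were not used, since the spread between 2 libraries sets the precision.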

Additional observations from a re-analysis of the deposited data

Results flagged for a closer look

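The response to Dex for 3 h differed between cells without inhibitor and cells after 7 days of inhibitor for 13 gene and inhibitor pairs, by the interaction in edgeR's quasi-likelihood fit (adjusted p below 0.05). After GSK591 the interactions on the log2 scale were -1.48 for H2BC3, -1.34 for H2AC4, -1.02 for H4C2, -0.95 for H2AC21, -0.92 for H4C5 and -0.86 for H3C10. After MS023 they were -1.05 for H2AC4, -1.02 for H2BC3, -1.0 for H2AC21, -0.91 for H4C1, -0.90 for H2AC14, -0.78 for H4C5 and -0.75 for H3C10. All 13 are negative, and H2BC3, H2AC4, H2AC21, H4C5 and H3C10 were called after both inhibitors, which share the untreated and Dex libraries. Of all tested genes, 0.183% had a called negative interaction after GSK591 and 0.144% after MS023. No histone gene was called under scaling by total counts, and single libraries weighed heavily, as given above.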

How the results depend on the processing

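Of the results given as counts of histone genes called, these moved by over 1.5 times. Scaling by total counts alone gave 0 and 23 calls for GSK591 at 2 and 4 days, 50, 50 and 46 for MS023 at 2, 4 and 7 days, 5 for Dex at 3 h, 1 for Dex with MS023, 0 and 4 for Dex at 15 min and 3 h after GSK591, 4 for Dex at 3 h after MS023, 49 for GSK591 against MS023 at 2 days, 4 for MS023 at 7 against 2 days, and 0 for each interaction. The 46 calls for MS023 at 7 days were all higher, which reversed H4C9 (0.27), H4C12 (0.47), H4C4 (0.49), H3C13 (0.66) and H3C15 (0.68, log2 fold changes). The DESeq2 Wald test gave 4 calls for GSK591 at 2 days, 14, 8 and 3 for MS023 at 2, 4 and 7 days, 1 for Dex at 15 min after GSK591 and 7 for Dex at 3 h after MS023. A fit of the compared groups alone gave 36, 27 and 15 for MS023 at 2, 4 and 7 days, 0 for Dex at 15 min after GSK591, 1 and 18 for Dex at 15 min and 3 h after MS023, and 11 for each interaction. Without the filter there were 3 calls for Dex with MS023, 1 and 19 for Dex at 15 min and 3 h after MS023, and 13 and 12 for the interactions with GSK591 and MS023. DESeq2 size factors gave 1 for Dex at 15 min after MS023.

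Leaving out 1 library at a time gave 0 to 5, 39 to 45 and 37 to 43 calls for GSK591 at 2, 4 and 7 days, 3 to 18, 2 to 17 and 1 to 5 for MS023 (at 7 days 1 higher and none lower without untreated replicate 2, and 3 higher and 1 lower, 4 in all, without MS023 replicate 1), and 2 to 10 for Dex at 3 h. It gave 0 to 2 and 5 to 11 for Dex at 15 min and 3 h after GSK591, 3 to 14 for Dex at 3 h after MS023, 9 to 25 for GSK591 against MS023 at 2 days, 9 to 24 for MS023 at 7 against 2 days, and 1 to 7 and 0 to 6 for the interactions with GSK591 and MS023.

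Deviations of same-numbered libraries from their group means had correlations of -0.453 to 0.493 over 105 pairs of groups, with a median of 0.0203. Of these pairs, 22 were above 0.1. The numbers thus did not pair the samples across all groups, but a median cannot tell whether some groups were paired. With the replicate number as a block, 11, 45 and 47 histone genes were called for GSK591 and 24, 18 and 9 for MS023 at 2, 4 and 7 days, and no count moved by over 1.5 times. Over all alternatives, the values of genes named by the rule kept their side of the threshold and direction in 1068 cases, lost the call in 145, gained one in 36 and reversed in 5.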
